A study of Bombyx mori with 3 samples.

Results

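The comparison described here is the egg of the silkworm Bombyx mori against the larva, measured on a 2-colour array of non-coding RNAs (ncRNAs) whose lengths run from 50 to 500 nucleotides. It is 1 of the 3 stage samples of the study (egg, pupa and adult). The egg sample was a pool of RNA from eggs in diapause and eggs not in diapause. The reference was a pool of larval RNA spanning instars 1 to 5. Pupae and adult moths were hybridised against that same larval pool, and the pupal sample spanned days 1 to 9 of pupation. All animals were of strain Dazao P50 with no transgene or treatment listed, and after hatching they were kept at 25 °C, 70% relative humidity and a day of 14 h light and 10 h darkness. The egg table held 2 scans with the dyes swapped, and each is called here by the dye that held the egg RNA. In the Cy5 scan the egg was red and the larva green (Cy3), and in the Cy3 scan the reverse. The column names call the egg channel embryo, while the sample labels, followed here, call it egg.

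The members were the ncRNA spots, named Bm with a number, that carried a flag of 0 or above. The array holds 132 such ncRNAs in 3 spots each, and 126 had at least 1 kept spot in egg. Of these, 104 were measured in both dye orientations, 8 in the Cy5 scan only and 14 in the Cy3 scan only. All 6 readings (3 spots in 2 scans) were kept for 69 ncRNAs, while 5 ncRNAs rested on 1 reading. The 6 ncRNAs with no kept egg spot were Bm-17, Bm-21, Bm-83, Bm-111, Bm-174 and Bm-175. With 1 pool per stage there is no biological replicate, so no test between egg and larva was possible and no p-value is given. Every error below (±) is an SD over the repeated spots of a probe on the array, which is technical. In egg and adult each spot was first averaged over the scans that kept it. For spots kept in both scans, a difference between the scans is therefore averaged out of the SD. Where the spots of a probe were kept in different scans, as for Bm-16, the SD also holds that difference. Pupal SDs come from 1 scan.

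Non-coding RNAs of this size range include the small nuclear RNAs of the spliceosome, the small nucleolar RNAs that guide chemical modification of ribosomal and spliceosomal RNA, and the RNAs transcribed by RNA polymerase III, such as the RNA of the signal recognition particle. In insects the early egg holds RNA supplied by the mother before the embryo's own genome is transcribed. Many silkworm strains lay eggs that enter diapause, a programmed arrest of the embryo. The Bm names used here carry no RNA class, so each ncRNA is described by its values alone and no function is given to it. In pooled whole eggs and larvae, fewer cells that hold an RNA cannot be told apart from less of that RNA per cell.

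In the Cy5 scan, 292 of 396 ncRNA spots were kept (73.7%), and in the Cy3 scan, 330 (83.3%). The background limit of a channel was set at its 95th percentile over the 108 negative spots (blank, buffer and other negative controls). In the Cy5 scan this was 318 intensity units for egg and 504 for larva, and 36 kept larval spots lay below it. In the Cy3 scan it was 171 for egg and 168 for larva, and 2 kept larval spots lay below it. The median SD over the spots of a probe was 0.18 on the log2 scale in the Cy5 scan and 0.093 in the Cy3 scan, so repeated spots lay closer together in the second scan.

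The ratios of egg over larva were centred near 0. The intensities were taken as already normalized, so a median near 0 may come from that step and does not show equal RNA amounts. The log2 ratio of egg over larva, taken as the mean over spots within each dye orientation and then over the orientations, had a median of 0.04 across the 126 ncRNAs, with quartiles of -0.22 and 0.28. In 65 of the 126 (51.6%) it lay within 1.2-fold of the larva. Every kept reading was above 0 for 35 ncRNAs and below 0 for 26. Among the 69 ncRNAs with all 6 readings, 19 had every reading above 0, 15 had every reading below 0 and 35 had readings of both signs.

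An ncRNA was counted as higher or lower where its mean ratio passed a fold and every kept spot and scan had the same sign. At 1.5-fold, 17 of the 126 were higher in egg (13.5%) and 9 were lower (7.14%). At 2-fold, 5 were higher (3.97%) and 1 was lower (0.794%). From the Cy5 scan alone, Bm-16 and Bm-155 were also lower at 2-fold, which made 3. Each of them rested on 1 kept spot in that scan. The egg signal of that spot was 319 for Bm-16, against a background limit of 318. For Bm-155 both signals lay below the background limit, and the Cy3 scan gave 0.61. The percentages above are the whole-table background, since the count runs over every measured ncRNA. The values on the lower side were a single deep decrease, Bm-86, followed after a wide gap by 8 ncRNAs between -0.82 and -0.61, while the higher side ran without such a gap from 0.59 to 1.42.

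**Figure D1:**
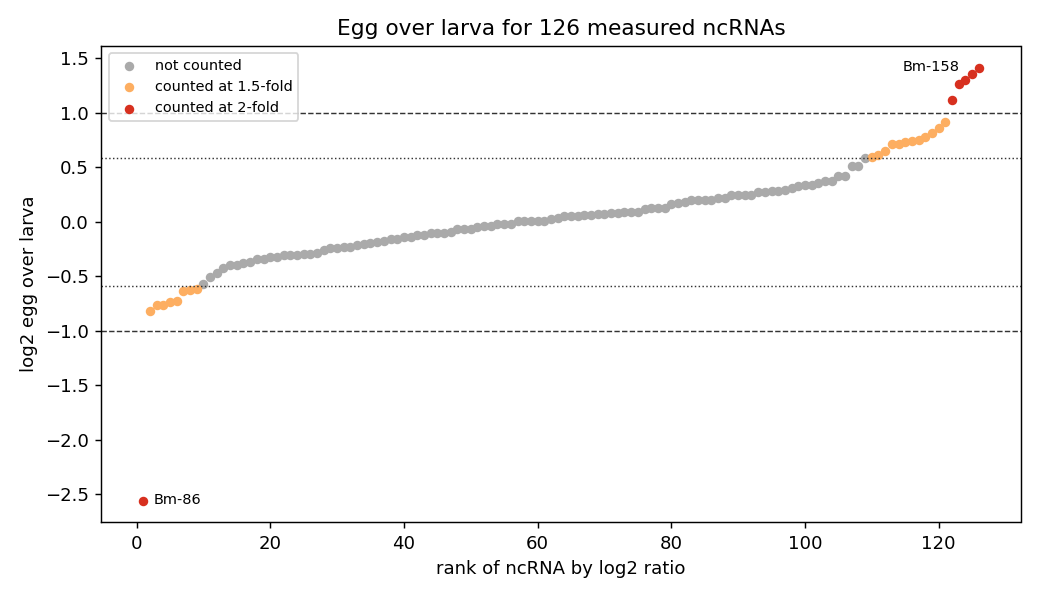
Log2 ratio of egg over larva (y axis) for the 126 measured ncRNAs in order of the ratio (x axis, rank), 1 point per ncRNA. Dotted lines mark 1.5-fold and dashed lines 2-fold, and Bm-86 at -2.56 stands apart from the next lowest value, Bm-95 at -0.82.

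Bm-86 was the ncRNA most reduced in egg. In the Cy5 scan, the mean intensity over its 3 spots was 691 in egg and 5936 in larva. In the Cy3 scan, it was 609.6 in egg and 2427 in larva. The mean egg signal was above the background limit in both scans. The brightest kept negative spot of the egg channel was at 523 in the Cy5 scan and 520 in the Cy3 scan. In the Cy3 scan 1 Bm-86 spot, at 472 in egg, lay below that. The scan means were -3.11 and -2.01, so the direction was shared but the size of the decrease is not settled. The spot ratios were -3.20, -2.86 and -3.26 in the Cy5 scan and -2.32, -1.82 and -1.90 in the Cy3 scan. The readings of the scans did not overlap, and each was below the lowest single reading of any other ncRNA, -1.33 for Bm-130. The mean was -2.56 ± 0.21 (SD, 3 spots), a 5.89-fold lower level in egg.

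Bm-158 had the highest ratio in egg. Its mean intensity was 704.6 in egg against 259 in larva in the Cy5 scan, and 1484 against 572 in the Cy3 scan. The 5 kept spot ratios were 1.64 and 1.26 in the first scan and 1.41, 1.45 and 1.29 in the second, so the orientations overlapped. The mean was 1.42 ± 0.14 (SD, 3 spots), or 2.67-fold. The larval signal in the Cy5 scan lay below the background limit, and the Cy3 scan, where it was above, gave 1.38.

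Bm-100 followed at 1.36 ± 0.08 (SD, 3 spots), 2.57-fold higher in egg. Its intensity was 1555 in egg and 557 in larva in the Cy5 scan, and 1436 and 605 in the Cy3 scan. The 6 spot ratios lay between 1.14 and 1.53. Both scans placed Bm-100 above 2-fold on their own, at 1.47 and 1.25.

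Bm-160 and Bm-183 were higher in egg in both scans but by unequal amounts. Bm-160 had 3671 in egg and 1287 in larva in the Cy5 scan, against 23775 and 11416 in the Cy3 scan. Its ratio was 1.54 in the first scan and 1.06 in the second, with a mean of 1.30 ± 0.11 (SD, 3 spots). Bm-183 had 3021 in egg and 988 in larva in the Cy5 scan, against 10531 and 5644 in the Cy3 scan. The Bm-183 ratio was 1.61 in the first scan and 0.91 in the second, with a mean of 1.26 ± 0.08 (SD, 3 spots). For both, the 3 readings of one scan did not overlap the 3 of the other.

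Bm-102 was the ncRNA just inside the 2-fold threshold. Its intensity was 3489 in egg and 1497 in larva in the Cy5 scan, and 5307 and 2525 in the Cy3 scan. The spot ratios were 1.27, 0.89 and 1.34 in the first scan and 1.03, 1.14 and 1.05 in the second. Its mean was 1.12 ± 0.09 (SD, 3 spots), 2.18-fold, and the orientations overlapped. Among these 5, Bm-183 was highest in the Cy5 scan, at 1.61 against 1.45 for Bm-158. In the Cy3 scan Bm-158 was highest, at 1.38 against 0.91 for Bm-183. The order of these 5 is therefore not fixed by these readings.

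Another 12 ncRNAs were higher in egg between 1.5-fold and 2-fold. Bm-37 lay just outside 2-fold, at 0.92 ± 0.20 (SD, 3 spots), with readings of 1.01 to 1.45 in the Cy5 scan and 0.38 to 0.69 in the Cy3 scan. Bm-159 was at 0.81 ± 0.09, with 0.84 and 0.79 in the 2 orientations. Bm-36 was at 0.78 ± 0.12, with 0.85 and 0.71. These last 2 gave nearly the same ratio whichever dye held the egg RNA.

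Bm-152 was at 0.75 ± 0.09 (SD, 3 spots), and its larval signal of 481 in the Cy5 scan lay below the background limit. Bm-180 was at 0.74 ± 0.04 and Bm-173 at 0.74 ± 0.06, so their spots agreed closely after averaging the scans. Between scans Bm-173 moved more, from 1.05 in the Cy5 scan to 0.42 in the Cy3 scan. Bm-151, the member nearest the threshold, was at 0.59 ± 0.06, with 0.78 and 0.40 in the 2 orientations, and Bm-176 was at 0.61 ± 0.07. The larval signal of Bm-176 in the Cy5 scan, 472, was also below the background limit. After median centring of each scan Bm-43, Bm-151 and Bm-176 fell short of 1.5-fold, at 0.54, 0.56 and 0.58. Bm-140 stayed past it, at 0.68, but its lowest reading changed sign and it was no longer counted.

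The other 4 of the 12 had fewer or more scattered readings. Bm-140 was at 0.71 ± 0.27, from readings of 0.56, 0.05 and 0.99 in the Cy5 scan and 0.90 in the 1 spot kept in the Cy3 scan. Bm-28 was at 0.86 ± 0.16 from 3 spots in the Cy3 scan only. Bm-121 had readings of 0.30, 1.70 and 0.15 in the Cy5 scan only, a mean of 0.72 ± 0.85. Bm-43 rested on 1 spot, at 0.65. For Bm-121 and Bm-43 the larval signal lay below the background limit in the only scan that measured them. The lowest larval signal above that limit was 515 intensity units, when each ncRNA's kept spots in that scan are averaged. Set against it, Bm-43 was at least 1.41-fold higher in egg in its 1 kept spot, which is short of the 1.5-fold threshold. The other egg spots of Bm-43 in that scan, at 230 and 61, carried a negative flag. No fold is given for Bm-121. With spots of negative flag included, the means of Bm-43 and Bm-121 turned to -0.37 and -0.10.

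On the lower side, 8 ncRNAs lay between 1.5-fold and 2-fold. Bm-117 had 2638 in egg and 4679 in larva in the Cy5 scan, and 4751 and 7747 in the Cy3 scan. Its 6 spot ratios ran from -0.91 to -0.62 and gave -0.77 ± 0.07 (SD, 3 spots), 1.70-fold lower, with overlapping orientations. Bm-79 was at -0.73 ± 0.08, with -0.91 in one orientation and -0.55 in the other. Bm-78 was at -0.74 ± 0.17 and Bm-88 at -0.64 ± 0.09, both with all 6 readings below 0. In the Cy5 scan 1 egg spot of Bm-78, at 294, lay below the background limit of 318.

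Bm-16 was at -0.77 ± 0.33, from 1 spot in the Cy5 scan (-1.03) and 2 spots in the Cy3 scan (-0.37 and -0.63). Bm-49 was at -0.61 ± 0.22, from 5 readings between -0.96 and -0.24. Bm-95, at -0.82 ± 0.17, and Bm-110, at -0.63 ± 0.24, were each measured in 3 spots in the Cy3 scan only. An additive dye effect is therefore not averaged out of Bm-95 and Bm-110, nor of Bm-28, Bm-43 and Bm-121.

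**Figure D2:**
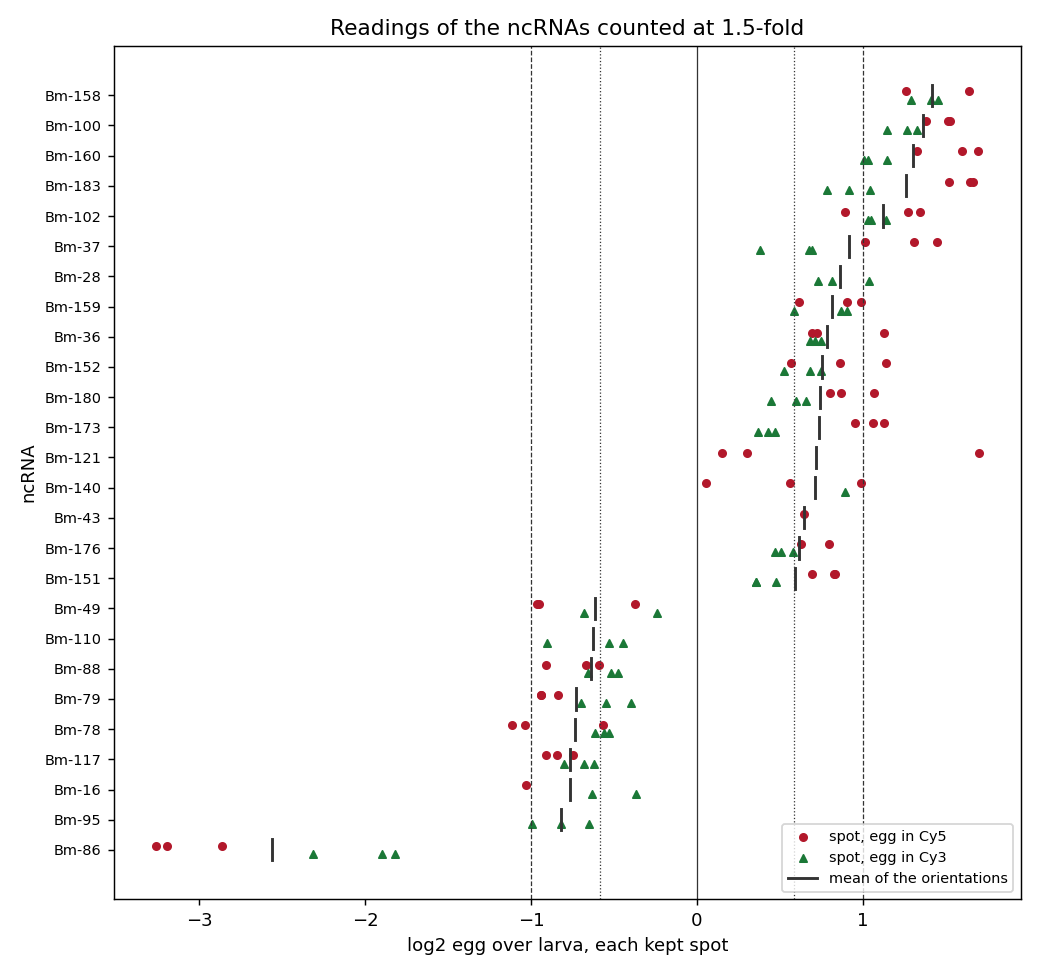
Log2 egg over larva (x axis) of every kept spot for the 26 ncRNAs counted at 1.5-fold (y axis), with circles for the Cy5 scan, triangles for the Cy3 scan and a bar at the mean of the orientations. Dotted lines mark 1.5-fold and dashed lines 2-fold, and for Bm-183, Bm-160, Bm-37 and Bm-173, among others, the circles and triangles do not overlap.

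Several ncRNAs lay just outside the 1.5-fold threshold. Bm-163, at 0.58, fell short of 1.5-fold, and its readings ran from -0.18 in the Cy5 scan to 1.08 in the Cy3 scan, so it also failed the condition on sign. Bm-38 at 0.51 (1 reading) and Bm-103 at 0.51 were next. The reading of Bm-38, in the Cy5 scan, had 177 in egg and 124 in larva, both below the background limit. On the lower side Bm-67 was at -0.58, with 6 readings between -0.63 and -0.49, a tighter span than any of the 9 ncRNAs counted as lower. Bm-112 at -0.51 and Bm-93 at -0.47 followed. No ncRNA (0 of 126) passed 1.5-fold in the mean and failed only the condition on sign.

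The dye orientations were then compared within the egg table, since the same RNA pools were measured with the dyes exchanged. Across the 104 ncRNAs measured in both, the ratio in the Cy5 scan minus the ratio in the Cy3 scan had a mean of 0.07, an SD of 0.47 and a median size of 0.24. This difference was larger than 1.5-fold for 16 ncRNAs and larger than 2-fold for 4. It exceeds the spread of repeated spots within a scan, so the SDs over spots understate the error of a ratio from 1 scan. For spots kept in both scans, the ± values of the averaged ratios leave this difference out as well. The SD of the difference divided by 2 is 0.23 on the log2 scale. It would be the spread of a mean of both scans if the scans erred independently. An additive dye effect cancels in that mean, and the part it has in the 0.23 was not separated.

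The orientation means had the same sign for 70 of the 104 ncRNAs and opposite signs for 34. The 34 lay near the larval level in the average, with a median size of 0.077 and a largest size of 0.31 (Bm-155). All 21 counted ncRNAs that were measured in both scans had the same sign in both, which the condition on sign requires. Of these 21, 10 passed 1.5-fold in each orientation alone. They were Bm-86 and Bm-117 on the lower side and Bm-36, Bm-100, Bm-102, Bm-152, Bm-158, Bm-159, Bm-160 and Bm-183 on the higher side.

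The size of the counted differences was larger in the Cy5 scan for 20 of those 21 ncRNAs, that is 13 of 14 higher and 7 of 7 lower. The exception was Bm-140, at 0.53 in the Cy5 scan and 0.90 in the Cy3 scan. The ratio of the log2 value in the Cy5 scan to that in the Cy3 scan had a median of 1.45 and ran from 0.596 (Bm-140) to 2.48 (Bm-173). Among the 83 ncRNAs measured in both scans but not counted, 46 had the larger size in the Cy5 scan. The cause of this difference between the scans was not tested.

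The 5 ncRNAs with the largest difference between orientations were Bm-155, Bm-40, Bm-146, Bm-86 and Bm-53. Bm-146 was bright in both scans, with 33449 in egg and 22849 in larva in the Cy5 scan, and 8408 and 16147 in the Cy3 scan. Its 3 readings were 0.50 to 0.59 in the Cy5 scan and -1.01 to -0.89 in the Cy3 scan, tight within each scan and opposite between them. Bm-40 also had opposite signs, at 0.95 in the Cy5 scan and -0.80 in the Cy3 scan, as did Bm-53, at 0.41 and -0.54. Both were much dimmer than Bm-146. In the Cy5 scan Bm-40 rested on 2 spots, 1 of them with a larval signal of 347, below the background limit of 504. In the Cy3 scan the mean egg signal of Bm-53 was 272, under the brightest kept negative spot, 520. For Bm-146, Bm-40 and Bm-53 the red channel was the brighter in one scan and in the other, whichever stage it held.

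Bm-155 ran the other way, with -1.22 from 1 spot in the Cy5 scan and 0.51 to 0.71 from 3 spots in the Cy3 scan. In that 1 spot the signals were 159 in egg and 370 in larva, both below the background limit. In the other scan they were 2576 and 1693. The average of -0.31 is therefore a mean of a reading at background level and one well above it.

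**Figure D3:**
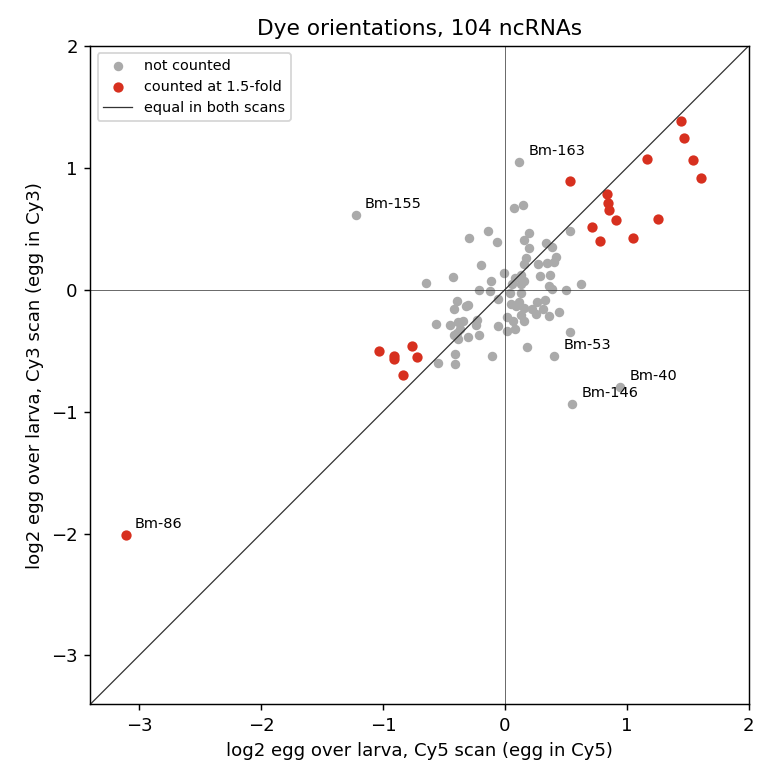
Log2 egg over larva in the Cy5 scan (x axis) against the Cy3 scan (y axis) for the 104 ncRNAs measured in both scans, 1 point per ncRNA, with the line of equal values. The counted ncRNAs other than Bm-140 lie farther from 0 along the x axis than along the y axis, and Bm-155, Bm-40, Bm-146 and Bm-53 have opposite signs in the 2 scans.

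Among ncRNAs with all 6 readings, the 5 with a mean nearest to the larval level were Bm-170, Bm-25, Bm-141, Bm-77 and Bm-71. Bm-141 was level in each scan, at 0.04 in the Cy5 scan and -0.02 in the Cy3 scan, with intensities of 3815 in egg and 3721 in larva in the first scan. Bm-170 was at 0.15 and -0.15, and Bm-25 at -0.19 and 0.20, so their means near 0 came from small opposite deviations. Bm-77 was at -0.04 ± 0.34 (SD, 3 spots), with single readings from -0.36 to 0.60. A mean near 0 thus stood for close agreement in Bm-141 and for scattered readings in Bm-77.

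The ratios of the counted ncRNAs at the other stages are set beside those of egg. All of them were taken against the same larval pool, so any departure of that pool is shared and no correlation or overlap is given. Of the pupal scans, the one with pupa in Cy5 matches the scan with adult in Cy3 of the adult table, with the same flag at all 561 spots and log2 red over green values that differ with an SD of 0.013. Pupal values therefore come from the other scan (pupa in Cy3), and adult values are given with both scans and with adult in Cy5 alone.

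For the 17 ncRNAs higher in egg, the adult ratios ran from -0.38 to 1.41 with a median of 0.20, against a median of -0.02 over 126 ncRNAs in adult. With adult in Cy5 alone the median was 0.21 for the 15 that were measured. In pupa, 15 of the 17 were measured and ran from -0.75 to 1.17, with a median of 0.11, against -0.04 over 111 ncRNAs. For the ncRNAs lower in egg, 8 were measured in adult with a median of -0.23, or -0.14 for the 7 measured with adult in Cy5. In pupa, 7 of them were measured, with a median of -0.09. Both sets were chosen by their egg ratio to this larval pool, so a low or high larval signal moves their medians at every stage. No link between stages is drawn from these medians.

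Bm-86 was at -2.56 in egg, at -3.99 ± 0.05 in adult (-3.71 with adult in Cy5 alone) and at -0.13 ± 0.05 in pupa. The pupal value lay near the larval level, while those of egg and adult were both far below it. In the adult table its adult signal was 1244 with adult in Cy5, above the limit of 792 there, but 1426 with adult in Cy3, below the limit of 1568. Bm-79 was at -0.73 in egg, -0.72 ± 0.08 in adult (-0.69 with adult in Cy5) and -0.09 ± 0.02 in pupa. Bm-117 was at -0.77 in egg, -0.17 ± 0.02 in adult (-0.14 with adult in Cy5) and -0.51 ± 0.22 in pupa.

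Of the 5 ncRNAs higher at 2-fold in egg, Bm-158 was at 0.20 ± 0.06 in adult (0.24 with adult in Cy5) and 0.08 in pupa (1 spot). Bm-100 was at 0.60 ± 0.07 in adult (0.65 with adult in Cy5) and 0.22 ± 0.25 in pupa. Bm-160 was at 0.11 in adult, from 1 spot of the shared scan, and 0.78 ± 0.15 in pupa. Bm-183 had an adult ratio of 0.20 ± 0.05 (0.09 with adult in Cy5) and a pupal ratio of -0.38 ± 0.09, and Bm-102 was at 0.27 ± 0.01 in adult (0.24 with adult in Cy5) and 0.59 ± 0.09 in pupa. All 5 values were higher in egg than in the other 2 stages. The 5 were chosen for their high egg ratio, so this order is partly set by that choice. Whether that difference would hold in other pools was not tested.

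Among the ncRNAs higher in egg, Bm-152 had higher ratios in adult and pupa than in egg, and Bm-140 had a higher ratio in adult. Bm-152 was at 0.75 in egg, 1.41 ± 0.18 in adult (1.37 with adult in Cy5) and 1.17 ± 0.08 in pupa. Bm-140 was at 0.71 ± 0.27 in egg, 1.27 ± 0.11 in adult (0.98 with adult in Cy5) and 0.78 ± 0.25 in pupa. Its egg SD draws on 2 scans and its pupal SD on 1, so they are unlike measures. Whether its egg and pupal values differ was not tested. Bm-37 and Bm-159 were below the larval level in pupa, at -0.75 (1 spot) and -0.68 ± 0.40 (2 spots), and at -0.21 ± 0.38 and 0.01 ± 0.12 in adult (-0.59 and -0.17 with adult in Cy5). Bm-36 was at -0.38 ± 0.12 in adult, with -0.72 when adult was in Cy5.

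**Figure D4:**
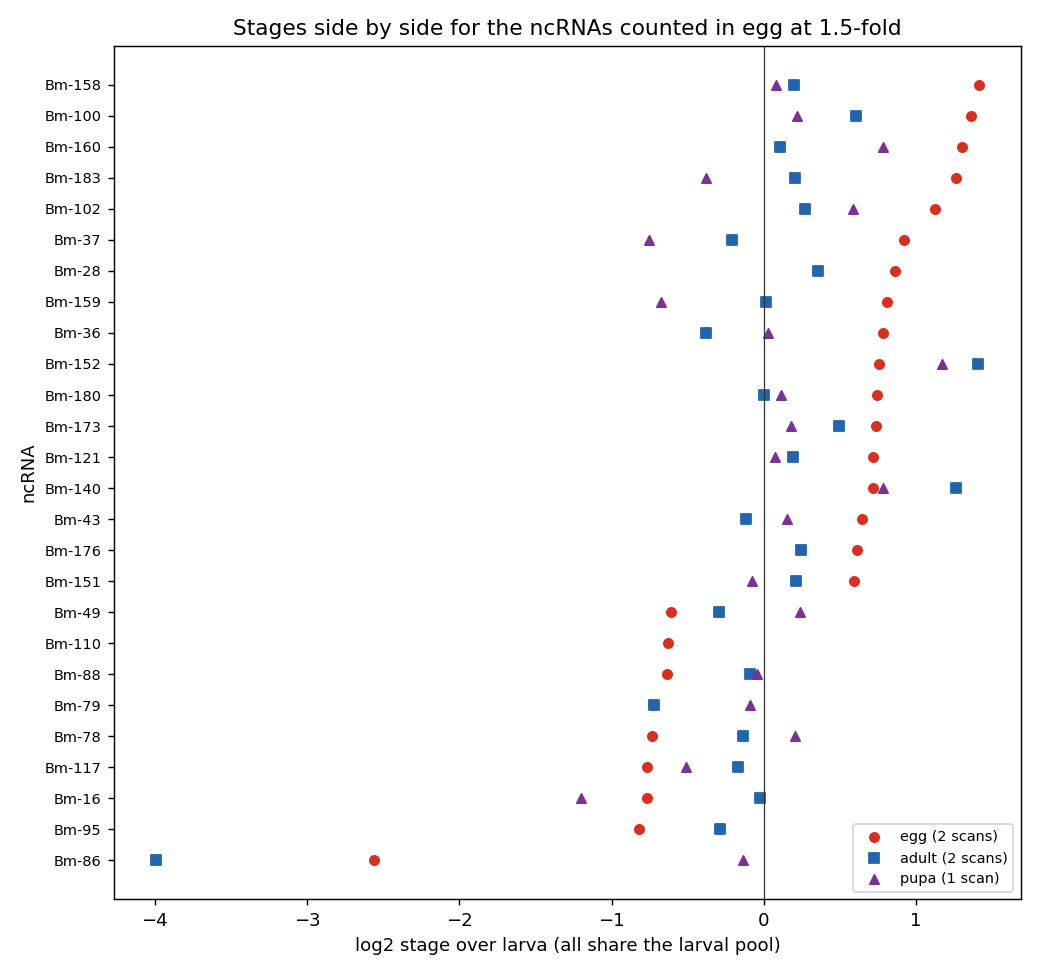
Log2 stage over larva (x axis) of the 26 ncRNAs counted in egg at 1.5-fold (y axis), with circles for egg, squares for adult (mean of both scans, 1 of them the scan also found in the pupal table) and triangles for pupa (1 scan). All ratios share the larval pool, a missing symbol means no kept spot, and Bm-86 is far below 0 in egg and adult but at -0.13 in pupa.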

How the data were processed

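Per the labels' protocols, Trizol was used to extract total RNA, and the dyes were built into the cDNA as it was synthesised. Per the file headers, the authors deposited red and green intensities and a flag score per spot and scan, with the stage in each dye given by the column name. No source used here gives the background correction or normalization. The median log2 ratio of kept egg spots was 0.10 in the Cy5 scan and -0.04 in the Cy3 scan, so the deposited intensities were used as already normalized. The authors' deposited log2 ratio equals the mean over kept scans at all 408 egg spots that have one, within 1e-08. The authors' deposited p-value per spot compares technical readings and was not used.

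Log2 egg over larva was computed with Python 3.11.15 and pandas 2.3.3, without a pseudocount, for spots with a flag of 0 or above, averaged within and then over dye orientations. Named ncRNAs were all those counted at 1.5-fold, up to 3 on each side of each threshold, the 5 with the largest difference between orientations, the 5 nearest 0, those without kept spots, and the named controls and AP probes. Members, thresholds and these rules were chosen with earlier results of these data known.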

Additional observations from a re-analysis of the deposited data

Results flagged for a closer look

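Probes outside the ncRNA set also gave an egg signal above the background limit, and they enter no comparison above. The control named RpL3, after a ribosomal protein gene, had a log2 egg over larva of 0.89 ± 0.26 (SD, 12 spots), with 0.92 in the Cy5 scan and 0.86 in the Cy3 scan. The control named actin A3 (an actin gene) was at -0.31 ± 0.23 (SD, 12 spots), and the control named ph, which was not resolved to an RNA, at 0.54 ± 0.20 (SD, 12 spots). The array also holds 7 probes named AP, of which 5 had no kept spot in egg. AP-3 was at 0.52 ± 0.29 (SD, 3 spots) and AP-2 at 0.69 (1 spot), both from the Cy3 scan. The larval signal of AP-2 there, 164, lay below the background limit of 168.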

How the results depend on the processing

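No paired analysis was possible because each stage is 1 pool. The 5 ncRNAs higher and the 1 lower at 2-fold were counted again with median centring, the authors' value table, the dimmest 25% of spots left out, medians of spots, both orientations required, a pseudocount of 50 and signs left free. In the Cy5 scan alone 3 were lower (Bm-155 and Bm-16, each on 1 kept spot at or near background level, besides Bm-86). With spots of negative flag kept 2 were lower (Bm-131 besides Bm-86). On the higher side at 2-fold, the Cy5 scan alone gave 7 (Bm-37 and Bm-173 gained) and the Cy3 scan alone gave 5, with Bm-163 gained and Bm-183, at 0.91, lost. At 1.5-fold the settings gave 13 to 18 higher and 6 to 11 lower, but in the Cy3 scan alone 10 of the 17 and 4 of the 9 remained. Leaving out 1 spot of each probe gave 15 to 18 higher and 7 to 11 lower at 1.5-fold, and 5 to 6 higher and 1 lower at 2-fold. With spots of negative flag kept Bm-43 turned to -0.37 and Bm-121 to -0.10. Leaving out spots of positive flag and requiring both channels above the negative spots were added after the data were seen, and gave 5 higher and 1 lower at 2-fold. Causes were not tested.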

Other observations

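The authors' deposited value table lists a log2 egg over larva for 127 names. For 110 of the 126 ncRNAs measured in both, it lay within 0.05 of the value given above, and the largest difference was at Bm-155, at 0.32 in the authors' deposited table and -0.31 here, where the 2 orientations have equal weight. Bm-175 is at 0.96 in the authors' deposited table, although all its egg spots carried a negative flag, so it would count as higher at 1.5-fold there and has no value here. The readings of those flagged spots ran from -1.44 to 0.56, so none reached the deposited value, and its origin was not traced.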
